A study of Homo sapiens with 12 samples.

Results

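The respiratory chain genes described here are the protein-coding genes whose symbols name subunits of complexes I to V, together with the complex II assembly factors that carry the SDHA prefix. A pattern on gene symbols (NDUFA, NDUFB, NDUFC, NDUFS and NDUFV genes, COX4 to COX8 genes, UQCR, SDHA to SDHD, ATP5F1, ATP5M and ATP5P genes, CYC1, and the MT-ND, MT-CO, MT-CYB and MT-ATP genes) found 106 genes among the 57773 listed, 93 in the nucleus and 13 on the mitochondrial chromosome. The pattern reads symbols only. Of these, 100 passed the filter on low counts and were tested, 87 nuclear and all 13 mitochondrial, among 21518 genes tested in the whole table.

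The 12 libraries came from polyadenylated RNA of WI-38, a human diploid strain of lung fibroblasts, in 4 groups of 3. Proliferating cells in DMSO received a control siRNA (siCtrl Prolif.). The other groups were treated with 50 µM etoposide, a topoisomerase II poison that breaks DNA, for 8 days to reach senescence, and received the control siRNA (siCtrl Sen.), an siRNA pool against NTRK2, which encodes the neurotrophin receptor TrkB (siNTRK2 Sen.), or an siRNA pool against BDNF, its ligand (siBDNF Sen.). All groups were transfected, with siRNA at 25 nM, and all come from one cell line. NTRK2 or BDNF silencing in proliferating cells was not analysed here. The comparison of senescent with proliferating control cells asks which of these mRNAs differ in senescence, and the comparisons within senescent cells ask what loss of the receptor or of the ligand does to them.

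The respiratory chain sits in the inner mitochondrial membrane. Complex I takes electrons from NADH and complex II from succinate, complex III passes them to cytochrome c, and complex IV hands them to oxygen. Complexes I, III and IV pump protons, and complex V, the ATP synthase, lets the protons flow back to make ATP. Complexes I, III, IV and V are built from subunits of both genomes, whereas complex II is nuclear encoded throughout. The mitochondrial genes are transcribed as long polycistronic RNAs from either strand of a circular chromosome. These are cut mostly at the tRNAs between the genes, and most of the mRNAs are polyadenylated inside the organelle. The nuclear genes have promoters of their own, many of them with sites for NRF1 or for ETS factors such as GABP.

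The order of the mitochondrial genes bears on the counts, because some of them share bases. In the GRCh37 reference, whose mitochondrial chromosome has 16569 bases, the end of MT-ATP8 and the start of MT-ATP6 lie on the same 46 bases, and MT-ND4L and MT-ND4 share 7. MT-ATP6 and MT-CO3 share 1 base, chrM:9207. MT-ND3 lies at chrM:10059-10404, between the tRNA genes MT-TG and MT-TR. The sequences show the former 2 overlaps and the tRNA before MT-ND3 in capitals, with 20 flanking bases on either side in lower case, on the strand of the named genes.
MT-ATP8 and MT-ATP6, chrM:8507-8592: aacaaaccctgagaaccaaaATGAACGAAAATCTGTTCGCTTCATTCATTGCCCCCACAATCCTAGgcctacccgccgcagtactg
MT-ND4L and MT-ND4, chrM:10740-10786: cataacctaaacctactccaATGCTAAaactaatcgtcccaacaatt
MT-CO3, MT-TG and MT-ND3, chrM:9971-10078: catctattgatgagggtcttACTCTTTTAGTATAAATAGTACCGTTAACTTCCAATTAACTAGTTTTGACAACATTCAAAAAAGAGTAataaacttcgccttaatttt
How reads on shared bases were assigned is not given in the sources used here, so the counts of MT-ATP8, MT-ATP6 and MT-CO3, and of MT-ND4L and MT-ND4, are uncertain to that extent. MT-ND6 (chrM:14149-14673) is the only member on the opposite strand.

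The libraries held between 31567912 and 72328151 counts. BDNF mRNA was between 44.3 and 48.9 normalized CPM (counts scaled to a common library size) after siBDNF and between 157 and 169 in siCtrl Sen. cells, a log2 difference of -1.79 ± 0.0487 (SE, adjusted p = 1.72e-18, edgeR). In siNTRK2 Sen. cells BDNF was higher than in siCtrl Sen. cells (203 to 206 CPM, log2 difference 0.33 ± 0.046, adjusted p = 8.35e-06). NTRK2 mRNA was low throughout, at most 29 counts in any library. It had 7, 15 and 10 counts in the siCtrl Sen. libraries and 0 in all 3 siNTRK2 libraries, and was called lower with siNTRK2 (adjusted p = 0.00202). The 10 fibroblast markers, all detected, summed to between 38343 and 39396 CPM in siCtrl Prolif., 32191 and 37297 CPM in siCtrl Sen., 43063 and 45748 CPM in siNTRK2 Sen. and 39082 and 41188 CPM in siBDNF Sen. libraries. The sums rest on a few abundant genes such as FN1, COL1A1 and COL1A2: by gene, senescence had 2 markers higher and 7 lower, siNTRK2 had 6 and 1, and siBDNF 2 and 6, with median log2 fold changes of -0.57, 0.31 and -0.15. In siCtrl Prolif. and siCtrl Sen. libraries the epithelial list (6 genes) summed to 81.8 to 86.9 and 118 to 139 CPM, with 4 genes higher in senescence, the endothelial list (3 genes measured) to 72.03 to 75.6 and 33.6 to 36.2 CPM, and the blood cell list (PTPRC, CD68, CD3E, HBB) to 48.6 to 53.8 and 106 to 115 CPM. With siNTRK2 these lists came to 110.1 to 117, 34.5 to 41.04 and 77.005 to 80.5 CPM, and with siBDNF to 126 to 129, 25.2 to 26.1 and 186 to 188 CPM. The epithelial genes EPCAM and CDH1 were under 1 CPM in every group mean. CD68, which encodes a lysosomal membrane protein, made up most of the blood list, and 3 of its 4 genes were under 3 counts in siCtrl Prolif. and 1 in the other groups. The 2 genes of this list that were tested were both called higher in senescence, with log2 fold changes of 1.05 and 8.72. The larger value belongs to a gene under 3 counts in siCtrl Prolif. Proliferation markers (MKI67, TOP2A, CCNB1, BUB1, PLK1) summed to between 237 and 258 CPM in proliferating cells, 29.3 to 31.7 CPM in siCtrl Sen., 57.2 to 59.4 CPM in siNTRK2 Sen. and 31.9 to 33.8 CPM in siBDNF Sen. cells, and all 5 were higher with siNTRK2 than with siCtrl. All 4 senescence markers were called with siNTRK2, CDKN1A and GDF15 lower (-0.50 and -0.62 on the log2 scale) and LMNB1 and CDKN2A higher (0.62 and 0.21), and 0 of 4 with siBDNF (1 of 4, CDKN2A, at an unadjusted p under 0.05). The part of these marker differences in the results on senescence, siNTRK2 and siBDNF was not tested.

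The 13 mitochondrial mRNAs took up a larger share of the counts in senescent cells with control siRNA than in any other group. The share was 1.35%, 1.70% and 1.61% of the counts in the siCtrl Prolif. libraries and 2.95%, 2.77% and 2.66% in the siCtrl Sen. libraries. It was 2.01%, 2.24% and 2.08% after siNTRK2 and 1.79%, 1.495% and 1.23% after siBDNF. The siCtrl Sen. libraries were above all others, the siNTRK2 libraries lay between, and the siBDNF libraries overlapped the proliferating ones. For the 93 nuclear genes the summed share moved far less: 0.792% to 0.817% in siCtrl Prolif., 0.834% to 0.907% in siCtrl Sen., 0.771% to 0.820% in siNTRK2 Sen. and 0.792% to 0.819% in siBDNF Sen. libraries. The lowest siCtrl Sen. value, in replicate 2, was 0.834%, the others being 0.892% and 0.907%. Counts of mitochondrial members per count of nuclear members came to 1.94 ± 0.215 (SD, n = 3) in siCtrl Prolif., 3.19 ± 0.218 in siCtrl Sen., 2.67 ± 0.0609 in siNTRK2 Sen. and 1.87 ± 0.354 in siBDNF Sen. cells. MT-CO1 held 25.2% of the mitochondrial members' counts and ATP5F1B 9.45% of the nuclear members' counts over all libraries. In bulk RNA, fewer transcripts per cell and a shift in the mix of cells cannot be told apart, and all levels are relative to the rest of the polyadenylated RNA.

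**Figure D1:**
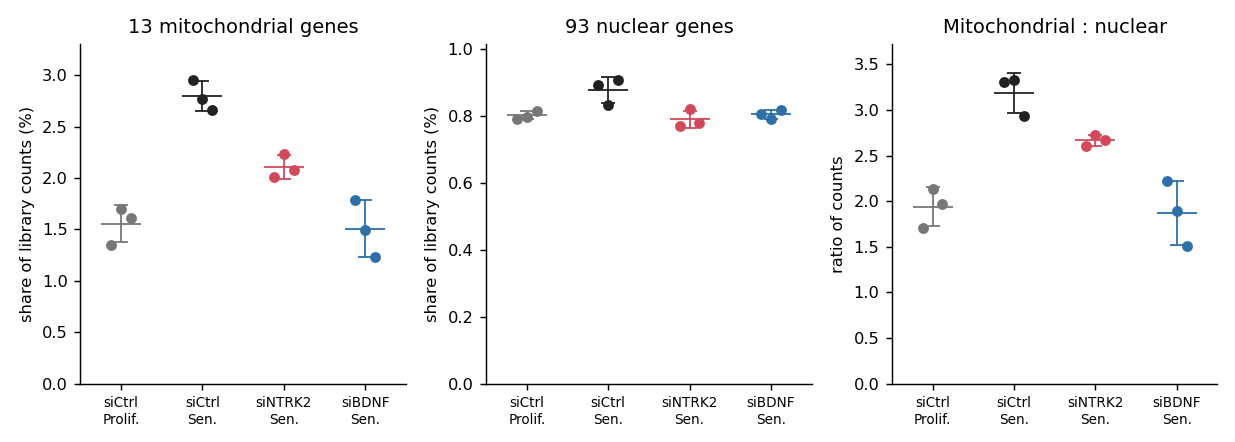
Share of each library's counts on the 13 mitochondrial genes (left, percent) and the 93 nuclear genes (middle, percent), and the ratio of the former to the latter (right), for the 4 groups. Points are libraries and bars mean ± SD of 3; the mitochondrial share peaks in siCtrl Sen. cells at 2.66% to 2.95% while the nuclear share stays between 0.771% and 0.907%.

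With control siRNA, all 13 mitochondrial mRNAs had higher levels in senescence than in proliferation (adjusted p under 0.05, edgeR quasi-likelihood test). In that comparison 29.8% of all tested genes were higher and 28.3% lower. The median log2 fold change of the 13 genes was 0.95, beside 0.02 over all genes tested. The libraries of all 13 lay above the proliferating ones with no overlap, as did those of 31.5% of all tested genes.

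The 3 highest values were in complex I genes. MT-ND6, the complex I subunit encoded on the other strand, was at 173, 206 and 200 CPM in proliferating and 521, 503 and 483 CPM in senescent cells. Its log2 fold change of 1.38 ± 0.0713 (SE, adjusted p = 1.42e-14) was the highest of the 13, though reads of the other strand may be among its counts. MT-ND5, a proton-pumping subunit, followed with 1.25 ± 0.0825 (adjusted p = 1.93e-12). MT-ND3 rose from 166, 178 and 168 CPM to 364, 341 and 353 CPM, a log2 fold change of 1.04 ± 0.0514 (adjusted p = 5.49e-15). The other complex I genes (MT-ND1, MT-ND2, MT-ND4 and MT-ND4L) were between 0.89 and 1.02. MT-CYB, the cytochrome b of complex III, had a log2 fold change of 1.02 ± 0.0949 (adjusted p = 1.14e-09).

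The catalytic subunits of complex IV and the ATP synthase subunits showed the lower values of the range. MT-CO1, which carries the oxygen-binding site, was at 3605, 4607 and 4124 CPM in proliferating and 7335, 6990 and 6845 CPM in senescent cells, a log2 fold change of 0.78 ± 0.0858 (adjusted p = 2.35e-08). MT-CO2 and MT-CO3 had 0.64 ± 0.0949 and 0.72 ± 0.0944. For MT-ATP6 and MT-ATP8, subunits of the membrane part of complex V, the values were 0.63 ± 0.0981 and 0.64 ± 0.101. The mitochondrial rRNAs, which encode no subunit, had 1.58 ± 0.0779 (MT-RNR1) and 1.29 ± 0.0645 (MT-RNR2).

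Per kilobase of gene, the levels in siCtrl Sen. cells ran from MT-CO2, MT-ATP6, MT-CO1, MT-ATP8 and MT-CO3 down to MT-ND5. MT-CO2 was at 6413 ± 513 CPM per kilobase (SD, n = 3), MT-ATP6 at 5425 ± 371 and MT-CO1 at 4576 ± 163. MT-ND4 was the highest complex I gene with 2254 ± 120 CPM per kilobase. MT-ND3, MT-CYB, MT-ND6 and MT-ND1 lay together, at 1019 ± 32.7, 962 ± 53.6, 957 ± 36.1 and 904 ± 55.7, and each had libraries overlapping those of the others except MT-ND3 and MT-ND1. MT-ND5 was the lowest with 736 ± 27.7 CPM per kilobase.

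**Figure D2:**
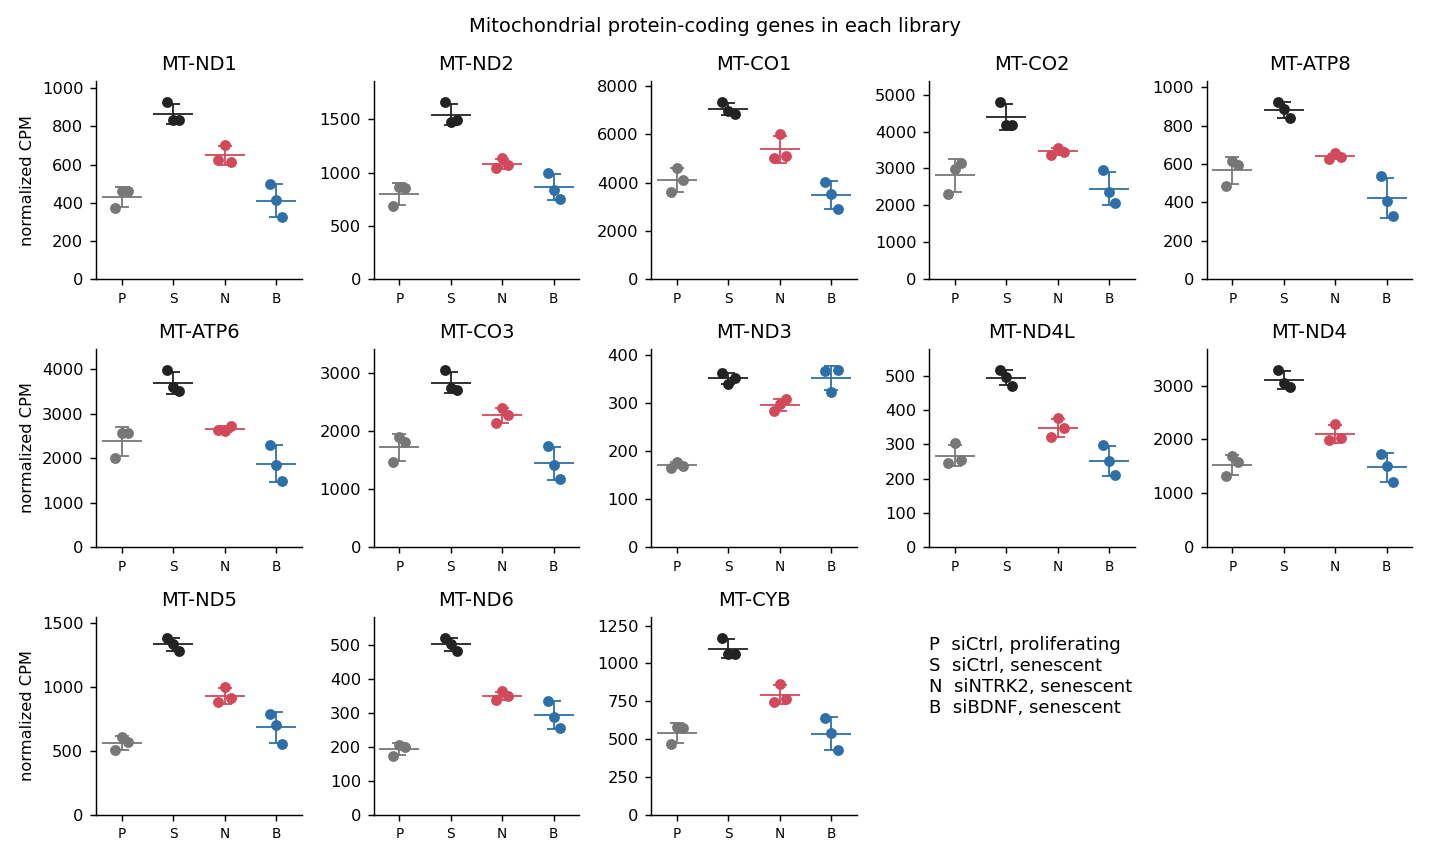
Normalized CPM (vertical axis, from 0) of the 13 mitochondrial genes in the 12 libraries by group; points are libraries and bars mean ± SD of 3. In 12 panels the siBDNF libraries lie below the siNTRK2 libraries, and in the MT-ND3 panel the siBDNF libraries (324 to 370 CPM) lie with the siCtrl Sen. libraries (341 to 364 CPM).

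In senescent cells, all 13 mitochondrial mRNAs were lower with siNTRK2 than with siCtrl, against 10.0% of all tested genes lower and 11.1% higher, with a median log2 fold change of -0.47 (all genes, -0.00). With siBDNF 12 of the 13 were lower, against 10.2% of all tested genes lower and 10.3% higher, with a median of -0.97 (all genes, 0.00). Both comparisons use the same siCtrl Sen. libraries. With the DESeq2 Wald test, 2 of the 13 genes lower with siNTRK2, MT-CO2 and MT-CO3, were not called, as without siCtrl Sen. replicate 1, and the 12 genes lower with siBDNF were called under every alternative run with no fold threshold. With the threshold of 1 on the log2 scale 0 remained with siNTRK2 (0.957% of all tested genes passed it) and 5 with siBDNF (MT-ND1, MT-ND4, MT-CYB, MT-CO1 and MT-ATP8; 0.609%).

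By complex, the median over the 7 complex I genes was -0.51 on the log2 scale for siNTRK2 and -0.97 for siBDNF. MT-ND4 was at 3292, 3052 and 2973 CPM with siCtrl, at 1992, 2291 and 2030 CPM with siNTRK2 and at 1735, 1502 and 1206 CPM with siBDNF. Its log2 fold changes were -0.56 ± 0.0885 (adjusted p = 4.92e-05) and -1.07 ± 0.0892 (adjusted p = 5.27e-09). The libraries of the 3 groups did not overlap. MT-ND1 went from 926, 833 and 834 CPM to 624, 704 and 615 CPM with siNTRK2 (-0.42 ± 0.096, adjusted p = 0.00271) and to 496, 414 and 325 CPM with siBDNF (-1.07 ± 0.0971, adjusted p = 1.59e-08). MT-ND6 differed by -0.52 ± 0.0699 with siNTRK2 and by -0.78 ± 0.0703 with siBDNF.

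For complex III, MT-CYB fell with siNTRK2 (-0.47 ± 0.094, adjusted p = 0.000732) and with siBDNF (-1.04 ± 0.0949, adjusted p = 1.85e-08). The 3 complex IV genes had medians of -0.34 and -0.97. MT-CO1 was at 5012, 6025 and 5121 CPM with siNTRK2 (-0.39 ± 0.0854, adjusted p = 0.00172) and at 4038, 3524 and 2914 CPM with siBDNF (-1.02 ± 0.0862, adjusted p = 6.54e-09). MT-CO2 and MT-CO3 differed by -0.34 ± 0.0946 and -0.32 ± 0.0939 with siNTRK2 and by -0.84 ± 0.0951 and -0.97 ± 0.0948 with siBDNF. Both complex V genes fell as well, MT-ATP6 by 0.48 and 0.98 and MT-ATP8 by 0.46 and 1.06 on the log2 scale with siNTRK2 and siBDNF.

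MT-ND3, a small membrane subunit of complex I, was the exception. It was at 364, 341 and 353 CPM with siCtrl, at 284, 298 and 309 CPM with siNTRK2 and at 367, 324 and 370 CPM with siBDNF. The siNTRK2 libraries were below the others (-0.25 ± 0.0506, adjusted p = 0.000865), and the siBDNF libraries overlapped the siCtrl libraries, with a log2 difference of 0.00 ± 0.0506 (adjusted p = 0.975). As a share of the mitochondrial members' counts, MT-ND3 made up 1.22% to 1.30% in siCtrl Sen., 1.34% to 1.501% in siNTRK2 Sen. and 2.13% to 3.06% in siBDNF Sen. libraries. Its neighbours MT-CO3 and MT-ND4L were among the 12 genes that fell with siBDNF.

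Compared directly, 12 mitochondrial mRNAs were higher with siNTRK2 than with siBDNF and MT-ND3 was lower, against 8.84% of all tested genes higher and 7.86% lower. The differences ranged from 0.26 for MT-ND6 to 0.66 for MT-ND1 on the log2 scale, with 0.65 for MT-CO3 and 0.63 for MT-CO1, and that of MT-ND3 was -0.25 ± 0.0507 (adjusted p = 0.000862). With DESeq2, 11 of the 12 were called, MT-ND6 being the exception, and without siBDNF Sen. replicate 3 the calls of MT-ND2 and MT-ND6 were lost (adjusted p = 0.0581 and 0.133). No member passed the threshold of 1 on the log2 scale (1.16% of all tested genes did). The rRNAs showed no such difference in the test: MT-RNR1 had -0.54 ± 0.0761 with siNTRK2 and -0.56 ± 0.0761 with siBDNF, and MT-RNR2 had -0.27 ± 0.0635 and -0.26 ± 0.0635, with direct differences of 0.02 ± 0.076 and -0.01 ± 0.0635.

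**Figure D3:**
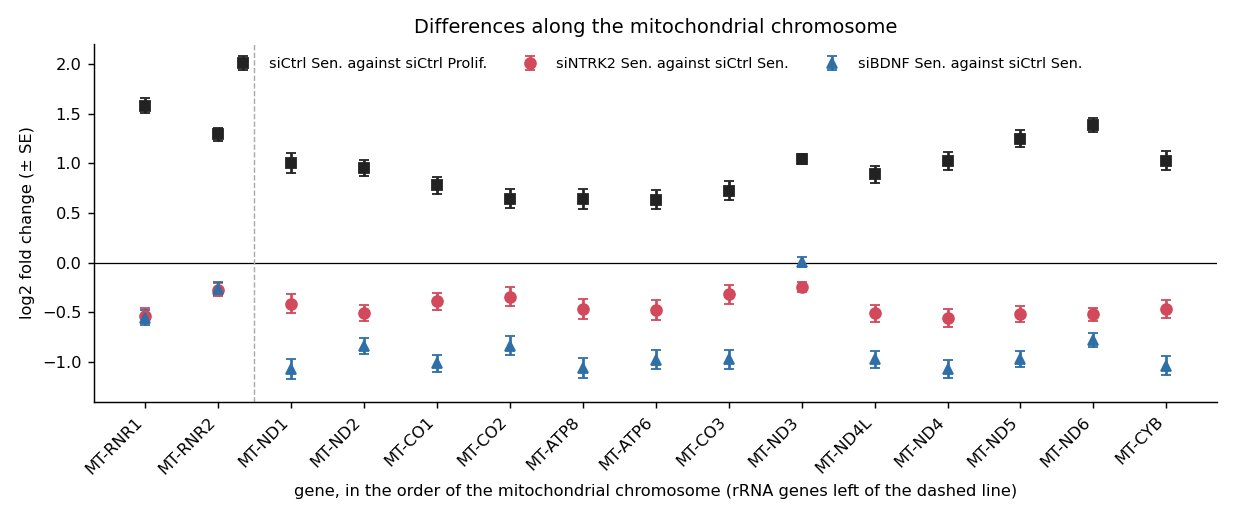
Log2 fold change ± SE of the mitochondrial rRNA and protein-coding genes in chromosome order, for senescence (squares), siNTRK2 (circles) and siBDNF (triangles). The siBDNF values lie between -0.78 and -1.07 for 12 mRNAs, at 0.00 for MT-ND3, and at -0.56 and -0.26 for the rRNAs MT-RNR1 and MT-RNR2.

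Nuclear copies of mitochondrial genes (pseudogenes such as MTCO1P12) can take reads from their mitochondrial sources. All 7 copies tested were higher in senescence, 3 were lower with siNTRK2 and 7 with siBDNF, with medians of 0.89, -0.25 and -0.996, beside 29.8% of all tested genes higher in senescence and 10.0% and 10.2% lower with the siRNAs. When their counts were added to those of the mitochondrial genes, an alternative chosen after seeing the data, every call on the 13 genes in these 3 comparisons stood.

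The nuclear genes changed by smaller amounts and, in senescence, in both directions. Of the 87 tested, 35 were higher and 15 lower in senescent than in proliferating control cells, with a median log2 fold change of 0.09 (all genes, 0.02). Leaving out single libraries moved the median of the nuclear genes between 0.05 and 0.13. These shares, 40.2% and 17.2%, stand beside 29.8% and 28.3% of all tested genes. The split changed when the fit took an offset that covers GC content and transcript length together and also rescales each library. With it, 16 were higher and 30 lower and the median was -0.03, while that offset moved the median of all genes from 0.02 to -0.11. With the offset, 13 of the 35 were still higher and all 15 still lower. Only 1 nuclear gene, COX7A1, and 6 mitochondrial genes also passed the study's threshold of 1 on the log2 scale, as 16.7% of all tested genes did in either direction.

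By complex, complex I had 15 higher and 6 lower of 37, complex II 0 and 1 of 4, complex III 6 and 1 of 10, complex IV 5 and 3 of 14, and complex V 7 and 3 of 18. Among the complex II assembly factors 2 of 4 were higher and 1 was lower. These counts are without the offset.

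COX7A1, the heart and muscle type isoform of a small complex IV subunit, stood apart. It was at 3.59, 2.75 and 3.08 CPM in proliferating and 8.84, 7.10 and 8.57 CPM in senescent cells, a log2 fold change of 1.38 ± 0.121 (adjusted p = 3.93e-10) at a low level. The other isoform gene, COX7A2, was at 107 ± 5.90 and 108 ± 10.8 CPM (SD, n = 3), with a log2 difference of 0.02 ± 0.067 (adjusted p = 0.839). With the offset COX7A2 was called lower, at -0.13 (adjusted p = 0.0362). UQCR11, a small subunit of complex III, rose from 91.5, 89.2 and 96.1 CPM to 135, 122 and 140 CPM (0.52 ± 0.0513, adjusted p = 3.05e-09). NDUFA2 and NDUFV3, accessory subunits of complex I, rose by 0.49 ± 0.0661 and 0.43 ± 0.0557. All 4 genes that rose here remained higher under the offset.

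Among the genes that fell, SDHAF3, an assembly factor of complex II, differed by -0.69 ± 0.165 (adjusted p = 0.000927) at 3.88 to 4.27 CPM in proliferating and 2.12 to 3.27 CPM in senescent cells. NDUFA9, an accessory subunit of complex I, went from 70.8, 78.3 and 75.8 CPM to 56.1, 50.6 and 54.8 CPM (-0.48 ± 0.0557, adjusted p = 5.83e-08). ATP5F1C, the gamma subunit that turns inside the ATP synthase head, went from 143, 146 and 141 CPM to 110, 108 and 112 CPM (-0.38 ± 0.0501, adjusted p = 3.73e-07). SDHD, a membrane anchor of complex II, differed by -0.32 ± 0.0756 (adjusted p = 0.000802). The libraries of these 4 genes did not overlap between the groups, as for 94.3% of all genes called in this comparison.

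The catalytic core genes had values in both directions. ATP5F1B, the catalytic beta subunit, was higher (0.28 ± 0.0454, adjusted p = 1.2e-05), whereas ATP5F1A, the alpha subunit beside it, was lower (-0.16 ± 0.0442, adjusted p = 0.00383). COX4I1 and COX5A, nuclear subunits of complex IV, were higher (0.29 ± 0.053 and 0.34 ± 0.0508). With the offset for length and GC content ATP5F1B and COX4I1 lost their calls, at 0.04 and 0.06 (adjusted p = 0.366 and 0.234), and ATP5F1A and COX5A kept theirs. CYC1, the cytochrome c1 of complex III, was called higher (0.19 ± 0.0584, adjusted p = 0.00749) but had overlapping libraries and a value of -0.04 with the offset, and UQCRFS1, the iron-sulphur protein of complex III, was lower (-0.13 ± 0.0544, adjusted p = 0.0385), a call that DESeq2 and library totals did not give (adjusted p = 0.0736 and 0.103). NDUFS1 and NDUFV1, which hold redox centres of complex I, had log2 differences of -0.08 and 0.01, and SDHA and SDHB, the catalytic subunits of complex II, 0.05 and 0.09, none of them called without the offset. With the offset NDUFV1 and SDHA were called lower, at -0.22 and -0.18.

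**Figure D4:**
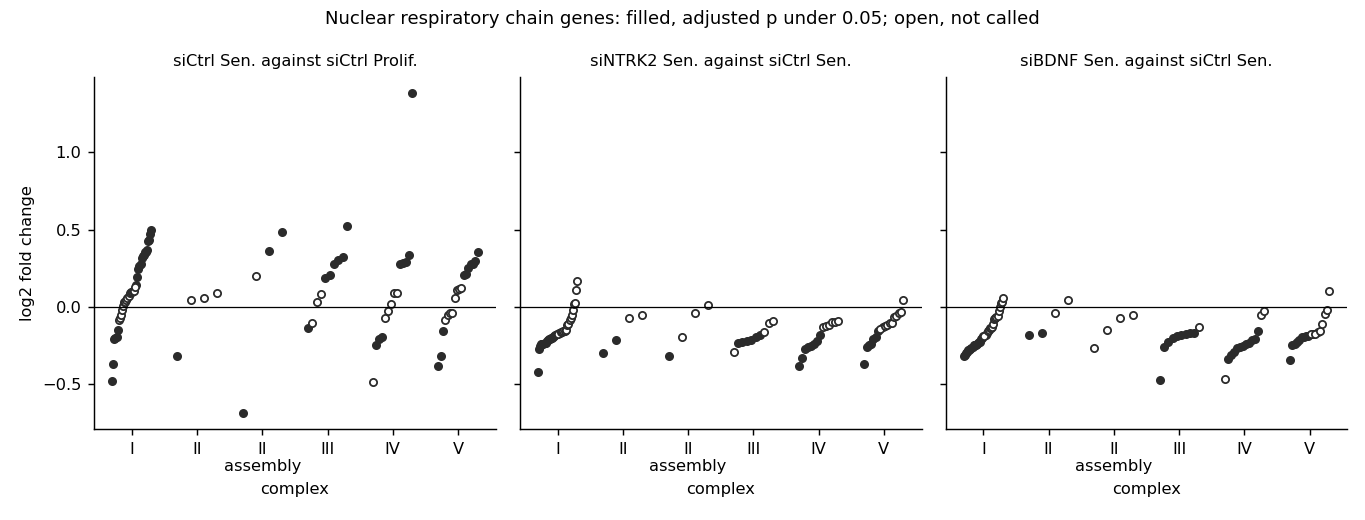
Log2 fold change of the 87 tested nuclear genes by complex in senescence, with siNTRK2 and with siBDNF; each point is a gene, filled where the adjusted p is under 0.05. In senescence 35 filled points lie above 0 and 15 below, and with either siRNA all filled points lie below 0 (46 and 54).

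With either siRNA the nuclear genes that changed in senescent cells were all lower. With siNTRK2, 46 of 87 were lower and 0 higher, beside 10.0% lower and 11.1% higher among all tested genes, and the median log2 fold change was -0.17. With siBDNF, 54 of 87 were lower and 0 higher, beside 10.2% and 10.3%, and the median was -0.19. The lowest and highest values were -0.42 and 0.17 with siNTRK2 and -0.47 and 0.10 with siBDNF, so that no nuclear gene passed the threshold of 1 on the log2 scale. No nuclear gene was called higher with DESeq2 either. At an unadjusted p under 0.05 in edgeR, 2 genes were higher with siNTRK2 (NDUFA5 and NDUFS1) and 0 with siBDNF. Of the 87 values, 81 were below 0 with each siRNA. The counts rest in part on single control libraries: without siCtrl Sen. replicate 3 they were 19 and 28, without siCtrl Sen. replicate 1 they were 26 and 34, and without siBDNF Sen. replicate 2 the siBDNF count was 29. With library totals in place of TMM scaling 41 and 35 were lower, and 1 was higher with siNTRK2.

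Genes of complexes I, II, III, IV and V were all among those that fell. Of the 10 complex III genes, 6 were lower with siNTRK2 and 9 with siBDNF. For complex I the counts were 21 and 21 of 37, for complex II 2 and 2 of 4, for complex IV 8 and 11 of 14, and for complex V 8 and 11 of 18. Of the complex II assembly factors 1 and 0 of 4 were lower. Within complex I, 4 and 2 of the 7 nuclear core genes were lower, 17 and 19 of the 30 accessory genes. The differences between complexes were not tested.

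The largest decreases among the genes called with siNTRK2 were in NDUFB11, COX7A1 and ATP5MF. NDUFB11, an accessory membrane subunit of complex I, was at 66.8, 60.0 and 68.9 CPM with siCtrl, at 50.2, 50.3 and 45.6 CPM with siNTRK2 and at 56.0, 52.6 and 56.6 CPM with siBDNF. Its log2 fold changes were -0.42 ± 0.0595 (adjusted p = 1.22e-05) and -0.24 ± 0.0594 (adjusted p = 0.00409), and the 3 groups did not overlap. ATP5MF, a subunit of the membrane part of the ATP synthase, was at 132, 117 and 139 CPM with siCtrl, and differed by -0.37 ± 0.0613 with siNTRK2 and -0.22 ± 0.0612 with siBDNF. Its readthrough gene ATP5MF-PTCD1 shares its exons, so the counts of both are uncertain. COX7A1 fell from 8.84, 7.10 and 8.57 CPM to 6.35, 6.71 and 5.76 CPM with siNTRK2 (-0.38 ± 0.113, adjusted p = 0.0167) and to 6.81, 6.04 and 6.59 CPM with siBDNF (-0.34 ± 0.113, adjusted p = 0.0338), still above the proliferating libraries. Its siBDNF call was lost with the offset (adjusted p = 0.0972) and with library totals (0.0819), and both calls were lost without siCtrl Sen. replicate 1 (0.0966 and 0.162) or replicate 3 (0.083 and 0.132).

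Among the genes called with siBDNF the largest decreases were in UQCRHL, COX7A1 and ATP5PD. UQCRHL, a copy of the complex III hinge gene UQCRH that may share its reads, differed by -0.47 ± 0.124 (adjusted p = 0.00734) at 8.41 to 9.43 CPM with siCtrl and 6.35 to 6.69 CPM with siBDNF. ATP5PD, a stalk subunit of complex V, was at 168, 156 and 168 CPM with siCtrl and at 128, 126 and 135 CPM with siBDNF (-0.34 ± 0.0524, adjusted p = 4.14e-05). With siNTRK2 it was at 136, 153 and 141 CPM (-0.20 ± 0.0522, adjusted p = 0.00832). COX8A, a subunit of complex IV, was at 143, 125 and 141 CPM with siCtrl, 111, 102 and 112 CPM with siNTRK2 and 105, 107 and 116 CPM with siBDNF, with log2 fold changes of -0.33 ± 0.0589 and -0.31 ± 0.059.

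Several core genes with high counts fell with both siRNAs. ATP5F1B was at 891, 817 and 908 CPM with siCtrl, 732, 762 and 720 CPM with siNTRK2 (-0.24 ± 0.0453, adjusted p = 0.000372) and 757, 747 and 786 CPM with siBDNF (-0.19 ± 0.0453, adjusted p = 0.00326). COX4I1 differed by -0.27 with each siRNA, ATP5F1A by -0.13 and -0.17, NDUFV1 by -0.15 and -0.18, COX5A by -0.26 and -0.22 and CYC1 by -0.20 and -0.17, all called, though the CYC1 libraries overlapped in both comparisons and those of ATP5F1A with siNTRK2. With the offset NDUFV1 and CYC1 lost their calls with siNTRK2 (adjusted p = 0.479 and 0.202) and with siBDNF (0.0588 and 0.151). ATP5F1A lost its siNTRK2 call when only the groups compared were fitted (0.0786) and with no filter (0.0645). With library totals the siBDNF calls of NDUFV1 and CYC1 were lost (0.0669 and 0.175). Without siCtrl Sen. replicate 1 each of these calls was lost. The adjusted p was then 0.146, 0.13 and 0.13 for NDUFV1, CYC1 and ATP5F1A with siNTRK2. With siBDNF it was 0.0729 for NDUFV1 and 0.25 for CYC1. ATP5F1B, COX4I1 and COX5A kept both calls under each alternative with all libraries and no fold threshold. SDHB and UQCRFS1 were called with siBDNF alone (-0.17 each, with library totals not called at adjusted p = 0.156 and 0.138, and SDHB not with the offset either, at 0.0548), at -0.05 and -0.11 with siNTRK2. The direct difference between the siRNAs for these 2 genes did not pass the test (adjusted p = 0.153 and 0.519). NDUFS1 and SDHA had values between -0.07 and 0.11 that were not called. With the offset for length and GC content NDUFS1 was called lower with siBDNF, at -0.22 (adjusted p = 0.000601).

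**Figure D5:**
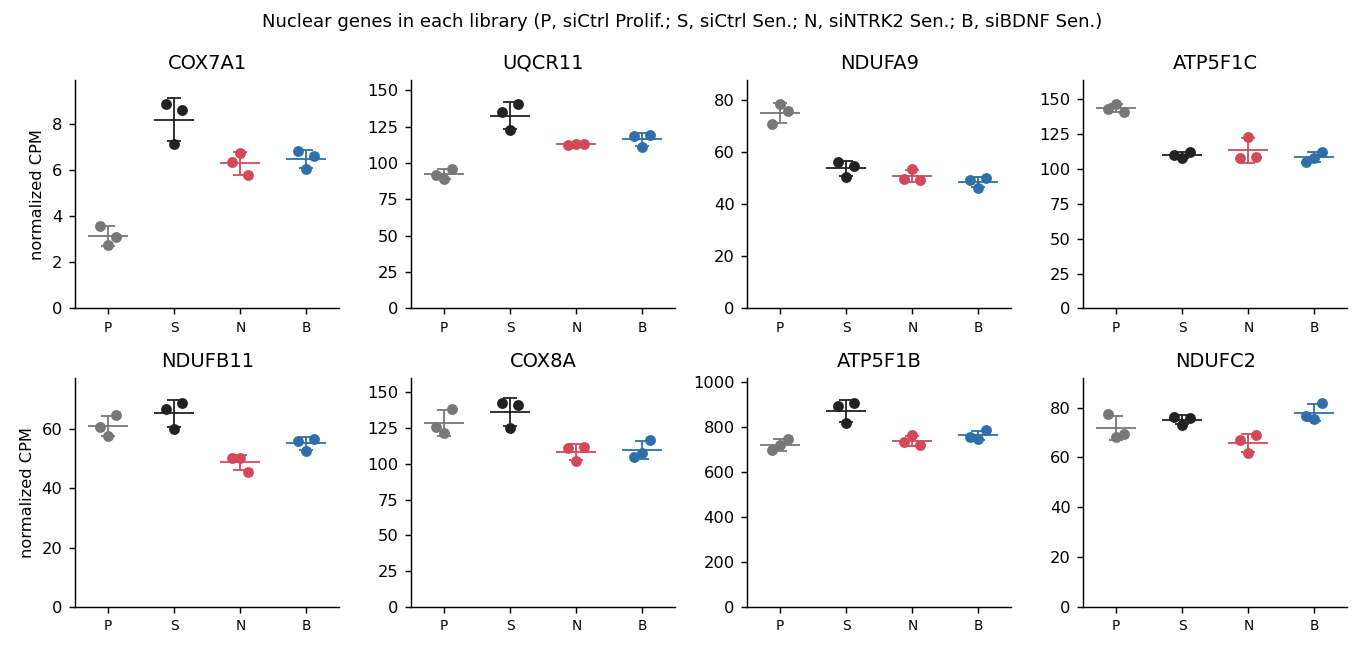
Normalized CPM (vertical axis, from 0) of 8 nuclear genes in the 12 libraries by group; points are libraries and bars mean ± SD of 3. COX7A1 and UQCR11 are higher and NDUFA9 and ATP5F1C lower in all senescent groups than in proliferating cells, while NDUFB11, COX8A and ATP5F1B are lower with either siRNA than with siCtrl in senescence, and NDUFC2 is lower with siNTRK2 alone.

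Promoters of nuclear members are described here, also by response to the siRNAs, in comparisons that share the siCtrl Sen. libraries. RefSeq (GRCh38.p14) gave the promoters of 73 of the 93 nuclear members. In the 250 bases before the start, searched on both strands, the letters GCATGCGC, the core of the NRF1 motif, stood in 13 (17.8%) against 2.81% of all 27305 promoters. The ETS core CCGGAAG stood in 19 (26.0%) against 8.82%. Of promoters of protein-coding genes in the table, 3.70% held the NRF1 core and 11.8% the ETS core. At least 1 of them stood in 26 of the members' promoters (35.6%), so that some held both. By response, 13 of 29 promoters of members lower with both siRNAs (44.8%) and 10 of 22 of members lower with neither (45.5%) held at least 1 core, the NRF1 core standing in 17.2% and 27.3% and the ETS core in 34.5% and 27.3%. A match of letters is no evidence that a factor binds there. NDUFS6, COX8A and NDUFB11 are shown as the genes with the largest summed decrease, among those with a promoter found and lower with both siRNAs, whose promoters hold the NRF1 core, the ETS core without the NRF1 core, or neither. Genes on chromosomes 8 and 18 were left out of that choice. Capitals mark the matched letters, in both cases on the strand opposite to the gene.
NDUFS6, chr5:1801157-1801406, + strand: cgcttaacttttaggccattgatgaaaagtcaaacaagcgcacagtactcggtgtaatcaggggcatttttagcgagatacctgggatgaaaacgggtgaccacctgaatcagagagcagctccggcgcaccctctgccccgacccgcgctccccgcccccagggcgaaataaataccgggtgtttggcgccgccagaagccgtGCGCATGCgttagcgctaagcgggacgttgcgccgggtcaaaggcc
COX8A, chr11:63974370-63974619, + strand: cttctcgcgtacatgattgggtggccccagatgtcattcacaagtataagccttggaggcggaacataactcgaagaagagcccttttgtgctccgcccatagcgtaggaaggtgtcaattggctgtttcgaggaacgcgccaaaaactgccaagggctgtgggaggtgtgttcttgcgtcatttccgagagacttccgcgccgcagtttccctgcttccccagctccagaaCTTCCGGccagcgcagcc
NDUFB11, chrX:47144703-47144952, - strand, with no match: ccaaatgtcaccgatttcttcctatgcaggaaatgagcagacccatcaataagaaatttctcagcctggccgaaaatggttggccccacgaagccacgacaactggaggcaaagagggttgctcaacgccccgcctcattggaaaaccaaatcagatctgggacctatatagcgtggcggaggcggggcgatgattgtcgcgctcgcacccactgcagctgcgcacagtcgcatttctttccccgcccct
NDUFS6, an accessory subunit of complex I, differed by -0.20 with siNTRK2 (adjusted p = 0.0138) and by -0.30 with siBDNF (adjusted p = 0.000462), and its libraries did not overlap those of siCtrl Sen. cells in either comparison.

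Directly compared, the siRNAs differed for 6 of the 87 nuclear genes, 3 in each direction, beside 8.84% and 7.86% of all tested genes. With the offset 12 were higher and 4 lower with siNTRK2, and with library totals 1 and 7. NDUFC2, an accessory subunit of complex I, was at 76.4, 73.1 and 75.9 CPM with siCtrl, 67.0, 61.7 and 68.8 CPM with siNTRK2 and 76.8, 75.2 and 81.98 CPM with siBDNF. Its siNTRK2 libraries were below all others, and the direct difference was -0.24 ± 0.0556 (adjusted p = 0.00284). The readthrough gene NDUFC2-KCTD14, whose counts share exons with NDUFC2, had -0.18 ± 0.0526 and NDUFB11 -0.18 ± 0.06. NDUFA10 (complex I), NDUFA4 (a subunit that joins complex IV) and ATP5MC1 were higher with siNTRK2 by 0.19 ± 0.0548, 0.20 ± 0.0643 and 0.18 ± 0.0597, and each was lower with siBDNF than with siCtrl. NDUFC2 alone among the 6 kept its call whichever library was left out and under each other alternative run with no fold threshold.

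COX4I2, COX6A2, COX6B2, COX7B2 and COX8C, tissue-restricted isoforms of complex IV subunits, and ATP5MGL had between 0 and 11 counts in any library and were not tested. Their partners COX6A1 and COX6B1 rose in senescence (0.27 ± 0.0584 and 0.29 ± 0.0614) and fell with siNTRK2 (-0.25 and -0.22) and with siBDNF (-0.24 each). With the offset both lost the call in senescence (adjusted p = 0.25 and 0.147) and COX6B1 that with siNTRK2 (0.0615). COX7B was at 0.09, -0.09 and -0.05 and was not called in these comparisons. NDUFA4L2, a paralog of NDUFA4 known as a hypoxia-responsive gene, was at 0.428 to 1.27 CPM and not called in the same comparisons.

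The 3 genes for the c subunit of the ATP synthase rotor encode the same mature protein, and their mRNAs differed in direction in senescence. ATP5MC1 was higher (0.21 ± 0.0595, adjusted p = 0.00385), ATP5MC2 lower (-0.32 ± 0.0578, adjusted p = 3.95e-05) and ATP5MC3 not called (-0.05 ± 0.0486). With the offset for length and GC content ATP5MC1 was at -0.00. With siBDNF the values were -0.24, -0.15 and -0.19, called for ATP5MC1 and ATP5MC3, and with siNTRK2 they were -0.06, -0.14 and -0.12, none called.

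Set against proliferating cells, the siNTRK2 senescent cells still had 11 of 13 mitochondrial mRNAs higher and 0 lower (28.2% of all tested genes higher, 26.8% lower), with a median log2 fold change of 0.44. The siBDNF senescent cells had 3 higher (MT-ND3, MT-ND5 and MT-ND6) and 4 lower (MT-CO1, MT-CO3, MT-ATP6 and MT-ATP8; 30.2% and 28.4% of all tested genes), with a median of -0.07. MT-ND3 and MT-ND6 differed from proliferating cells by 1.05 ± 0.0514 and 0.60 ± 0.0707 and did not overlap them, while the libraries of the 4 lower genes overlapped those of proliferating cells. The call of MT-ND5 was lost with the offset (0.16, adjusted p = 0.0752) and without siBDNF Sen. replicate 1 or siCtrl Prolif. replicate 1 (adjusted p = 0.109 and 0.0585). Of the 4 lower calls 1, MT-ATP8, stood with DESeq2, and 2 genes were lower with library totals, where the median was 0.03. Without siBDNF Sen. replicate 3 or without siCtrl Prolif. replicate 2 the count was 2, and without siBDNF Sen. replicate 1 it was 7, and leaving out single libraries moved the median between -0.22 and 0.07. Among nuclear genes 11 were higher and 28 lower with siNTRK2, and 12 and 35 with siBDNF, with medians of -0.06 and -0.07. With the offset for length and GC content the counts were 7 and 45 with siNTRK2 and 6 and 51 with siBDNF, and with library totals 21 and 24, and 27 and 22. By the threshold of 1 on the log2 scale, COX7A1 alone passed with siNTRK2 and COX7A1 and MT-ND3 with siBDNF, beside 14.8% and 17.6% of all tested genes. Without the threshold, the higher ones included COX7A1 (1.002 and 1.04), NDUFA2 (0.38 and 0.42) and NDUFV3 (0.45 and 0.37, the latter 0.06 and not called with the offset), and the lower ones SDHAF3 (-0.68 and -0.76), NDUFA9 (-0.56 and -0.63) and, with siNTRK2, SDHD (-0.53 ± 0.0762). NDUFA4L2 was lower with siBDNF (-0.95 ± 0.306, adjusted p = 0.00943).

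Other genes of the pathway, from lists of assembly factors and carriers, were counted in the same way. Their counts stand beside 29.8% higher and 28.3% lower among all tested genes in senescence, 11.1% and 10.0% with siNTRK2 and 10.3% and 10.2% with siBDNF. Of 18 complex I assembly factors, 3 were higher and 10 lower in senescence, 2 were lower with siNTRK2 (NDUFAF3, NDUFAF8) and 3 with siBDNF (NDUFAF2, ACAD9, TIMMDC1), the siNTRK2 share of 11.1% being near that of all genes. Of 22 complex IV assembly factors, 8 were higher and 9 lower in senescence. With siNTRK2 1 was higher (COA7) and 5 lower (SURF1, COX14, COA3, HIGD1A, HIGD2A), and with siBDNF 1 was higher (COA7) and 5 lower (SURF1, COX16, COA4, PET100, HIGD2A). Complex III assembly factors (6) had 1 higher and 2 lower in senescence and 1 higher with each siRNA (TTC19 with siNTRK2, LYRM7 with siBDNF). Of 5 genes for complex V assembly and regulation 1 was higher and 1 lower in senescence, and ATP5IF1, the inhibitor of ATP hydrolysis by complex V, was lower with siNTRK2 (-0.23 ± 0.0521, adjusted p = 0.00263) and with siBDNF (-0.17, adjusted p = 0.0182). Of 14 genes for cytochrome c and coenzyme Q, 6 were higher and 5 lower in senescence. COQ4 and COQ8A were lower with siNTRK2 and COQ10B higher with siBDNF.

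Genes that act on both genomes were also listed, and the same shares of all genes apply. Of 28 genes for mitochondrial transcription and RNA processing, 4 were higher and 13 lower in senescence, 3 higher with siNTRK2 (PNPT1, POLG, FASTKD2), and 5 higher and 2 lower with siBDNF. The siNTRK2 share, 10.7%, was near that of all genes. TFAM, which packages mitochondrial DNA and starts its transcription, was lower in senescence (-0.73 ± 0.0891) and higher with siBDNF (0.34 ± 0.0902, adjusted p = 0.00738). LRPPRC and SLIRP, which bind and stabilize mitochondrial mRNAs together, differed in sign with siBDNF (0.18 ± 0.0516 and -0.28 ± 0.0724, both called). Of 9 nuclear regulators, 2 were higher and 4 lower in senescence, among them NRF1 (-0.43 ± 0.0942, adjusted p = 0.000394), and 1 was higher with each siRNA (PPRC1 with siNTRK2, ESRRA with siBDNF), a share of 11.1% that is near that of all genes in both comparisons. The genes of these lists were named after their values were seen.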

How the data were processed

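The libraries were made with a stranded poly(A) mRNA kit and sequenced paired-end. The authors trimmed reads with Cutadapt, aligned them with STAR 2.4.0j to hg19 and counted them per Ensembl gene with featureCounts 1.6.4 (tools per the submitters' processing notes), and the deposited values are these raw counts per gene and library. The strand setting and the treatment of reads on overlapping genes are not given in the sources used here.

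The counts were tested with edgeR 4.0.16 in R 4.3.3 (TMM scaling, filterByExpr, quasi-likelihood F test) in 1 fit over all 12 libraries, with Benjamini-Hochberg adjustment over the 21518 genes tested. A gene was called at an adjusted p under 0.05, and SE was taken from each log2 fold change and its F value. The study's own test, the DESeq2 Wald test with a threshold of 1 on the log2 scale, was run as an alternative with DESeq2 1.42.0. Other alternatives were DESeq2 size factors, library totals, other filters on low counts, an offset that removes trends with the length and GC content of transcripts (a length was had for 93.3% of tested genes), scaling without the mitochondrial chromosome, only the groups compared, the replicate number as a block, and leaving out each library. The offset also takes out each library's mean log level over the genes with a length, so it rescales the libraries beyond TMM. Genes without a length got no such offset. Lost calls and changes of sign with the offset can thus come from the rescaling as well as from length and GC content. The fit was tested on simulated data. CPM are TMM-normalized, and 3 counts correspond to between 0.0427 and 0.0916 CPM.

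The genes named were the 13 mitochondrial genes, a fixed set of nuclear core genes and isoform genes, and per comparison the 3 nuclear genes with the largest increase and decrease among those called. One gene of the fixed set is not reported here. Other genes were named after their values were seen. The members and lists were chosen with earlier results of these data known. The paper states in general that its experiments were repeated independently with the compared groups run side by side. The labels do not say whether the replicates of these libraries are such repeats, so p-values measure the spread between these libraries, which may be technical. No libraries of a group agreed within counting noise, and all 12 were used. SCO2 and PECAM1 were not matched and were not analysed here. Promoter sequences are from RefSeq, GRCh38.p14, and mitochondrial sequences from GRCh37.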

Additional observations from a re-analysis of the deposited data

Results flagged for a closer look

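The effects of the siRNAs, each against siCtrl Sen. cells, differed from each other by a direct test (adjusted p under 0.05, edgeR) for 19 of the 100 members tested. With siNTRK2, 15 were higher and 4 lower than with siBDNF, beside 8.84% and 7.86% of all tested genes. Among mitochondrial genes the difference, siNTRK2 minus siBDNF on the log2 scale, was 0.66 for MT-ND1, 0.33 for MT-ND2, -0.25 for MT-ND3, 0.51 for MT-ND4, 0.46 for MT-ND4L, 0.45 for MT-ND5, 0.26 for MT-ND6, 0.57 for MT-CYB, 0.63 for MT-CO1, 0.50 for MT-CO2, 0.65 for MT-CO3, 0.50 for MT-ATP6 and 0.60 for MT-ATP8. MT-ND3 is the only one of the 13 with a negative difference. Among nuclear genes it was 0.19 for NDUFA10, 0.20 for NDUFA4, 0.18 for ATP5MC1, -0.18 for NDUFB11, -0.24 for NDUFC2 and -0.18 for NDUFC2-KCTD14, which shares exons with NDUFC2. The groups overlapped for NDUFA4 and did not for the other 18 genes, as for 97.4% of all genes called in this comparison.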

How the results depend on the processing

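The calls on mitochondrial genes in senescence and with each siRNA held under every alternative without a fold threshold, except with siNTRK2, where 11 of 13 were called under DESeq2 and without siCtrl Sen. replicate 1, and 12 without siNTRK2 Sen. replicate 1 and with the block and offset together, MT-CO3 losing its call (adjusted p = 0.0574). Over all tested genes, deviations from group means had a mean correlation of 0.00184 between same-numbered libraries (range -0.0396 to 0.027). Between differently numbered libraries it was -0.000936 (range -0.0489 to 0.0461). A batch shared in only some genes was not tested. With a replicate block 34 nuclear genes were higher and 15 lower in senescence, 44 were lower with siNTRK2 and 55 with siBDNF. The offset rests on 1 transcript per gene of a newer annotation, and it moved the median of all genes to -0.11 in senescence and -0.13 for siBDNF against proliferating cells. The cause of the changes that follow was not tested.

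With the offset, nuclear counts in senescence were 16 higher and 30 lower with a median of -0.025 (with the block too 16, 30 and -0.026). The siNTRK2 median was -0.12 (block -0.12). Between the siRNAs 12 were higher (block 15). Against proliferating cells, siNTRK2 gave 7 higher and 45 lower genes with a median of -0.11 (block 7, 47 and -0.12), and siBDNF 6 higher with a median of -0.16 (block 6 and -0.16). Named genes changed sign with the offset, with the block added to it giving the second value of each pair: NDUFV1 -0.22 and -0.22, SDHA -0.18 and -0.18, CYC1 -0.037 and -0.040, COX7A2 -0.13 and -0.14, ATP5MC1 -0.0010 and -0.0022 and NDUFC2-KCTD14 -0.11 and -0.12 in senescence. COX8A was reversed there, at -0.10, in the fit with the block and offset together. NDUFS1 was at -0.22 and -0.22 with siBDNF, called lower in both fits. Against proliferating cells NDUFS1 -0.32 and -0.32, COX4I1 -0.10 and -0.10 and ATP5F1B -0.11 and -0.11 changed sign under siNTRK2, and SDHA -0.11 and -0.11, CYC1 -0.13 and -0.13, COX4I1 -0.13 and -0.13 and ATP5F1B -0.10 and -0.10 with siBDNF.

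With library totals 1 nuclear gene was higher with siNTRK2, 35 were lower with siBDNF with a median of -0.13, and 1 was higher and 7 lower between the siRNAs. Against proliferating cells siNTRK2 gave 21 higher genes with a median of -0.00278, and siBDNF 27 higher and 22 lower ones with a median of 0.019 and 2 mitochondrial genes lower. With at least 10 counts in every library 5 nuclear genes were lower between the siRNAs and 2 mitochondrial genes lower with siBDNF than in proliferating cells, where DESeq2 gave 1. With the fold threshold the counts were 1 nuclear gene higher and 0 lower and 6 mitochondrial in senescence, 0 of either kind with siNTRK2, 0 nuclear and 5 mitochondrial with siBDNF, 0 between the siRNAs, and against proliferating cells 1 nuclear higher, 0 lower and 0 mitochondrial for siNTRK2. For siBDNF they were 1 and 0 nuclear and 1 and 0 mitochondrial.

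Leaving out single libraries gave between 19 and 55 lower nuclear genes and 0 to 1 higher with siNTRK2, 28 to 63 lower with siBDNF, 0 to 4 higher and 1 to 4 lower between the siRNAs, 8 to 17 higher for siNTRK2 and 7 to 13 for siBDNF against proliferating cells, and 2 to 7 lower mitochondrial genes in the last comparison. Without the member with the most counts the mitochondrial shares were 1.16%, 2.09%, 1.57% and 1.14% and the nuclear shares 0.733%, 0.791%, 0.716% and 0.727% in siCtrl Prolif., siCtrl Sen., siNTRK2 Sen. and siBDNF Sen. cells, and the ratios 1.58, 2.65 and 2.19 in the former 3. Outside the mitochondrial chromosome the nuclear share was 0.817% in siCtrl Prolif. and 0.823% in siBDNF Sen. cells.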
